A study of Mus musculus with 13 samples.

Results

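Rn7sk encodes 7SK, a small nuclear RNA transcribed by RNA polymerase III, and its reactivity profile in mouse embryonic fibroblasts is described here nucleotide by nucleotide. All positions of the deposited Rn7sk profile were taken, and those carrying the missing-value code were dropped, which left 313 of 331 nucleotides, of 2259 measured nucleotides over all profiles of the series. The fibroblasts of both groups used here carried the genotype Mbnl1-/-/Mbnl2-/-, a knockout of both of these genes for splicing regulators. One group, Rn7SK NAI, was probed for 12 minutes with 100 mM of NAI (2′-methylnicotinic acid imidazolide, a reagent that enters living cells and acylates the 2′-hydroxyl of flexible nucleotides), and the other, Rn7SK DMSO, received the solvent alone. Each group is 1 sample, and the authors' profile is 1 value per nucleotide tied to both, so there is no replicate and no test between samples. Doxycycline was used in the study to switch on MBNL1, and the labels do not say whether it was given to the cells of these samples. Whether these cells made MBNL1 is thus unknown. The labels do not say either whether the cells came from one clone.

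7SK holds the positive elongation factor P-TEFb (the kinase CDK9 with cyclin T) in an inactive ribonucleoprotein, so that RNA polymerase II pauses near promoters until the kinase is released. The protein HEXIM1 binds a hairpin at the 5′ end of 7SK through paired GAUC repeats and brings in P-TEFb. MePCE caps the 5′ end, LARP7 holds the last hairpin and the U-rich 3′ tail, and hnRNP proteins bind a long hairpin in the middle when P-TEFb has left. The RNA is known to take more than one fold. In some the 5′ end pairs with a strand near the 3′ end and closes the molecule into a ring, and in others it pairs with a strand just past the first hairpin.

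The gene lies on chromosome 9, from 78175303 to 78175633, on the minus strand (mm10). The sequence in the profile equalled the genome there with 0 mismatches. GENCODE annotates a miscellaneous RNA with 1 exon and no intron over exactly these bases, and RefSeq gives 332 nucleotides (nt) that run 1 base further at the 3′ end. The pieces the results turn on are shown 5′ to 3′, with capitals for nucleotides at a reactivity of 0.4 or more (the usual lower bound of moderate SHAPE reactivity) and lower case for those below it or without a value. In the order printed they lie at chr9:78175547-78175610, chr9:78175486-78175537, chr9:78175350-78175437 and chr9:78175308-78175334, all on the minus strand. They show where runs of reactive nucleotides fall within the HEXIM1-binding hairpin, the first middle hairpin, the long central hairpin and the LARP7-bound hairpin. The central hairpin is printed over its extent in the short-range fold, and the others over theirs in the main fold (both folds are described below).
5′ hairpin, nt 24 to 87: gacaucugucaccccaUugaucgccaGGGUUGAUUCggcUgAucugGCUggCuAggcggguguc
Middle hairpin 1, nt 97 to 148: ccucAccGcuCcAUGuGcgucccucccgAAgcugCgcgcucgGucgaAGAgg
Central hairpin, nt 197 to 284: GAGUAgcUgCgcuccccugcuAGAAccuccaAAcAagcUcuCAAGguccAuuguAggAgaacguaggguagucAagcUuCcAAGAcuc
3′ hairpin, nt 300 to 326: GAggcgcugcaUGUGgcagucugccuu

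Reactivities are in the authors' deposited unit, where 0 means no signal over background and values rise with flexibility, and each is given ± its deposited standard error. Over the RNA they ran from -1.21 to 6.20 with a median of 0.164, and 107 nucleotides (34.2%) lay at or above 0.4. Of the 313 values, 24 lay within 1.96 standard errors of 0.4, so their side of that bound is uncertain. The error was not even along the RNA: its median was 0.0192 between the second GAUC and nt 288, 0.0817 from nt 5 to 41 and 0.187 from nt 289 to 319. No value was present for nt 1 to 4, U41, A49 and nt 320 to 331. The U-rich tail and the 3′ strand of the lower part of the stem that LARP7 holds are thus not described.

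**Figure D1:**
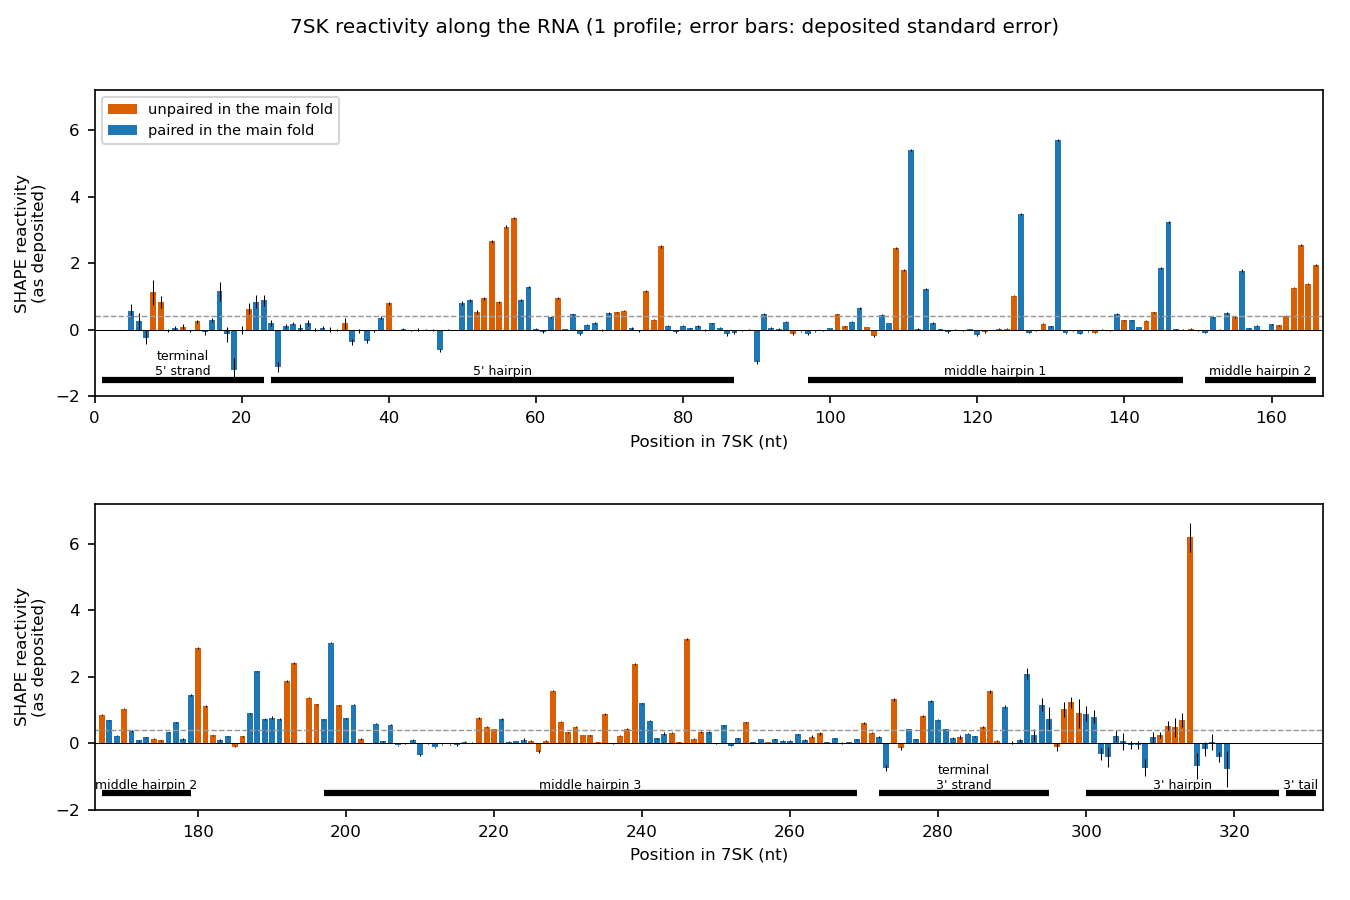
SHAPE reactivity in the authors' deposited unit (vertical axis) against position in 7SK (horizontal axis, nt), in 2 panels; bars are single nucleotides, coloured by pairing in the main fold, error bars are deposited standard errors, the dashed line is 0.4 and black bars mark elements. The 3 tallest bars are G314, C131 and G111, and error bars widen at both ends.

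Pairing was read from folds of the sequence alone, so that no reactivity entered it. In the main fold GAUC repeats 2 and 3 were made to pair with each other, as in the HEXIM1-binding hairpin of the literature. It gave -111.6 kcal/mol, 0.4 kcal/mol above the free minimum of -112.0, in which repeat 1 paired with repeat 2 instead. A further fold kept the forced helix and allowed no pair over more than 100 nt (-103.9 kcal/mol), and is called the short-range fold. Hairpins and linkers below are those of the main fold unless another is named.

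The HEXIM1-binding hairpin showed a low stem under a high loop. In the main fold it ran from nt 24 to 87 with 24 pairs. Both partners were below 0.4 at 20 of them (83.3%), against 54 of 94 measured pairs (57.4%) over the RNA. The 48 paired nucleotides of the hairpin had a median of 0.0365 (mean 0.0937 ± 0.00706), and its 14 measured unpaired ones a median of 0.887 (mean 1.32 ± 0.0145). The longest stretch of 7SK with every value at 0.4 or more was its tip, G50 to C59.

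Within that tip 3 nucleotides stood above the others. U54 had 2.66 ± 0.0395, A56 had 3.09 ± 0.0438 and U57 had 3.35 ± 0.0421. G52 (0.527 ± 0.0549), U53 (0.939 ± 0.0435) and G55 (0.834 ± 0.0222) were lower. The main fold closes the loop with G50 paired to C59 and G51 to U58, yet G50 read 0.801 ± 0.0526, C59 read 1.27 ± 0.0287, G51 read 0.880 ± 0.0318 and U58 read 0.891 ± 0.0273. The reactive stretch was thus 10 nt long, against a loop of 6 in the fold. It ended at the low pairs of C48 with G60 and C47 with G61, and A49 beside it had no value.

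The GAUC repeats that HEXIM1 recognises were low. Repeat 2 (nt 42 to 45) had 0.0361 ± 0.0262 at G42, -0.0259 ± 0.0216 at A43, 0.00625 ± 0.0401 at U44 and 0 ± 0.00995 at C45, with a mean of 0.00412 ± 0.0134. All of its values lay within 1.96 standard errors of 0. Repeat 3 (nt 64 to 67) had 0.0259 ± 0.0125 at G64, 0.467 ± 0.0182 at A65, -0.117 ± 0.0335 at U66 and 0.151 ± 0.0188 at C67. Its A65 was the only nucleotide at or above 0.4 in any repeat, and the mean of repeat 3 exceeded that of repeat 2 by 0.128 ± 0.0174. Repeat 1 (nt 13 to 16), outside the hairpin, had -0.0324 ± 0.0250 at G13, 0.254 ± 0.0478 at A14, -0.0699 ± 0.0748 at U15 and 0.298 ± 0.0688 at C16.

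The uridines just before repeats 2 and 3 were reactive where they could be read. U40, just before repeat 2, had 0.792 ± 0.0554, its neighbour U41 had no value, and U63, just before repeat 3, had 0.962 ± 0.0276. These uridines bulge out of the helix in the main fold and are known as part of the HEXIM1 site. Each stood apart from the adjoining repeat by more than the deposited errors. Uridines just after a repeat, paired in the main fold, read 0.201 ± 0.0219 at U68 and 1.15 ± 0.295 at U17.

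The other reactive nucleotides of the hairpin lay on its 3′ strand, from G70 to A77. C71 (0.525 ± 0.0190) and U72 (0.578 ± 0.0233) form a bulge in the main fold, next to the paired G70 (0.498 ± 0.0392). C75 (1.17 ± 0.0247), U76 (0.306 ± 0.0165) and A77 (2.50 ± 0.0321) form an internal loop with A34 (0.189 ± 0.154) across from them. On the 5′ strand, the 16 nt from G24 to A39 were all below 0.4, the longest such stretch of the hairpin. A25 read -1.11 ± 0.147 and C47 read -0.6199 ± 0.0398, both below 0 by more than 1.96 errors.

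**Figure D2:**
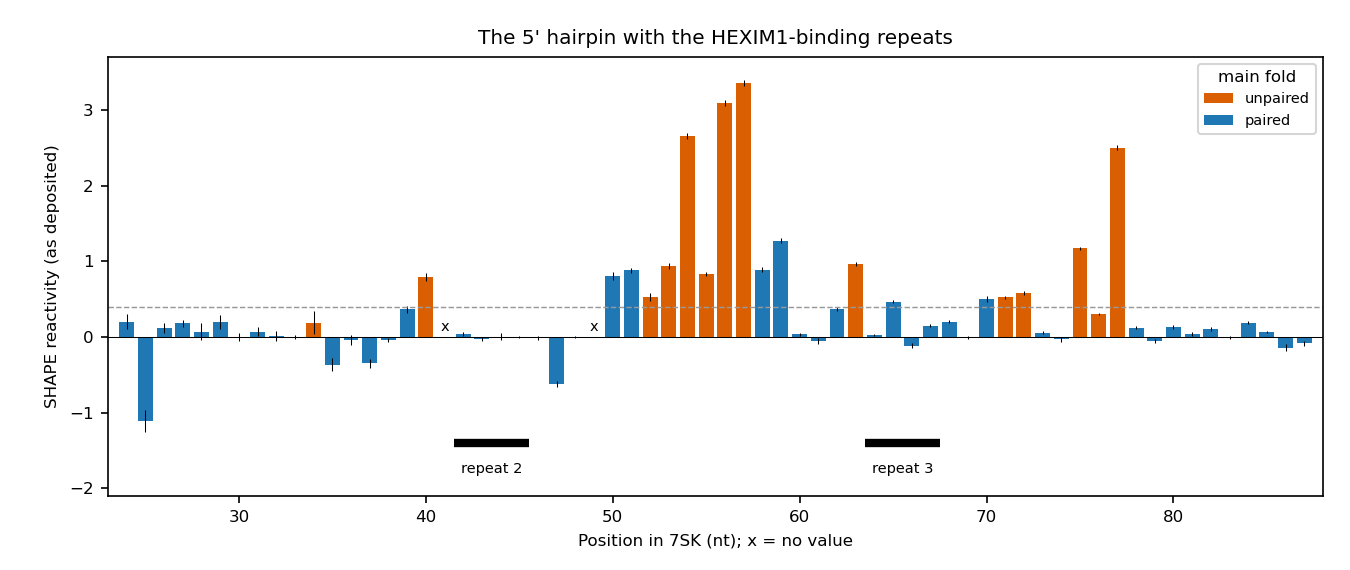
SHAPE reactivity in the deposited unit (vertical axis) of nt 24 to 87 (horizontal axis), coloured by pairing in the main fold, with deposited standard errors; the dashed line is 0.4, black bars mark GAUC repeats 2 and 3 and x marks nucleotides without a value. Repeat 2 lies near 0 and repeat 3 below 0.4 except A65 at 0.467, while nt 50 to 59, U40, U63, C75 and A77 stand above 0.4.

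The 2 ways of pairing the repeats assign different states to 20 measured nucleotides of nt 24 to 87. Of these, 6 are unpaired when repeat 2 meets repeat 3 and paired in the free fold, and their mean reactivity was 1.79 ± 0.0156, with 5 of 6 at or above 0.4. The reverse holds for 14, with a mean of 0.0924 ± 0.0141 and 2 of 14 at or above 0.4. Of the 13 measured pairs of the free fold's hairpin at nt 49 to 91, 5 (38.5%) had both partners low. In its other hairpin, nt 10 to 48, which pairs repeats 1 and 2, the count was 12 of 14 (85.7%). Over all measured pairs of the free fold it was 55 of 91 (60.4%). Repeat 2 is paired in both folds, so its low values do not tell them apart. Over the whole RNA the comparison ran differently. There 10 of the 32 nucleotides unpaired only in the main fold (31.3%, median 0.251) and 13 of the 37 unpaired only in the free fold (35.1%, median 0.182) were at or above 0.4.

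The folding model gave these repeats a mean pairing probability of 0.438 for 2 with 3 and 0.4595 for 1 with 2 from the sequence alone. With the reactivities added as pseudo-energies, the probabilities were 0.999 and 2.48e-05. These are outputs of a model that used the values above and are no separate measurement.

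The 5′ end of 7SK can pair with either of 2 strands, and these strands differed in reactivity. The 7 nt from C289 to C295, the far partner that would close the ring, had a mean of 0.780 ± 0.0679, and 4 of 7 were at or above 0.4. The 7 nt from C96 to C102, the near partner, had a mean of 0.0551 ± 0.00759, with 1 of 7 at or above 0.4. The difference of 0.725 ± 0.0683 exceeds the deposited errors, which cover no spread between samples. The strands are shown with the same capitals for values at or above 0.4.
5′ end, nt 1 to 11: ggauGugAGgg
Near partner, nt 96 to 102: cccucAc
Far partner, nt 289 to 295: CacAuCC

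In the far partner A292 was highest, with 2.10 ± 0.163, followed by C294 (1.16 ± 0.187), C289 (1.11 ± 0.0497) and C295 (0.736 ± 0.348). A290 (0.0196 ± 0.0478), C291 (0.0904 ± 0.0546) and U293 (0.247 ± 0.187) were not separated from 0 by their errors. In the near partner A101 had 0.4698 ± 0.0168 and the other 6 ran from -0.120 to 0.102. The near partner holds 5 cytidines and 1 adenosine and the far one 4 and 2, and cytidines were the least reactive base of this RNA, so base composition differs as well, and its part in the difference was not tested. The far partner also lies where the deposited errors are large. The main fold pairs nt 97 to 100 of the near partner within middle hairpin 1, so low values there do not tell these pairings apart.

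At the 5′ end itself the values were mixed and their errors large. G5 had 0.578 ± 0.198, U6 had 0.263 ± 0.229, G7 had -0.233 ± 0.190, A8 had 1.12 ± 0.373 and G9 had 0.829 ± 0.190, whereas G10 (-0.0219 ± 0.0330) and G11 (0.0588 ± 0.0566) were near 0. A8 and G9 are unpaired in the ring-closing helix and paired in the near one. G1 to U4, which pair only in the far helix, had no value. From the sequence alone the model gave the far helix a mean probability of 0.950 and the near one 0.109. With the reactivities added these were 0.440 and 0.568.

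**Figure D3:**
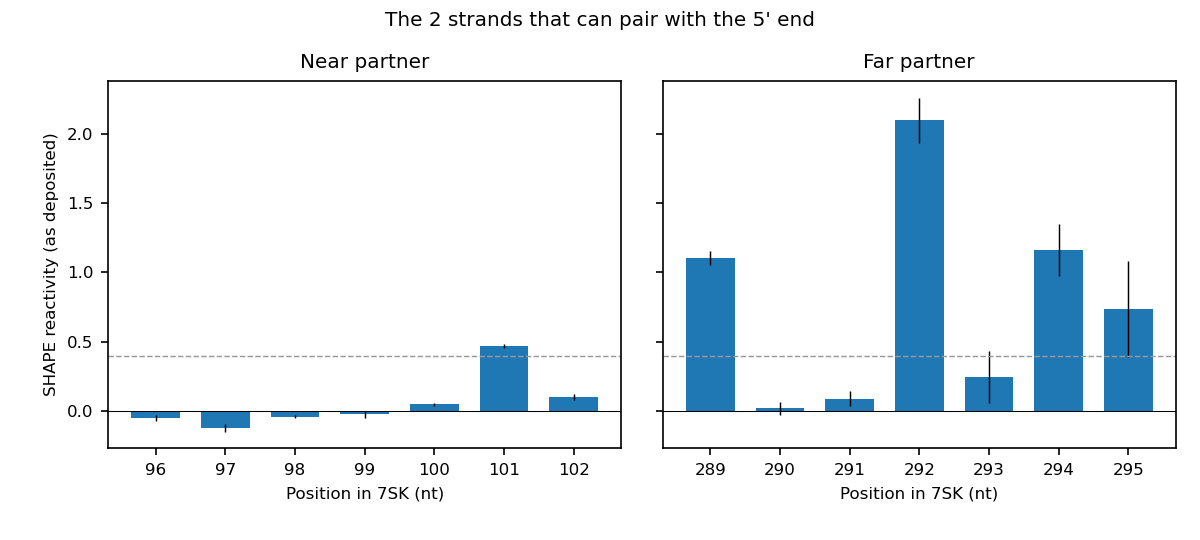
SHAPE reactivity in the deposited unit (vertical axis) of the 7 nt of the near partner and the 7 nt of the far partner of the 5′ end (horizontal axes, position in nt), with deposited standard errors and a dashed line at 0.4. A101 is the highest of the near partner at 0.4698, and 4 nt of the far partner lie above 0.4.

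Beyond the first hairpin the 9-nt linker of nt 88 to 96 was nearly silent. Its mean was -0.0418 ± 0.00970 and its median -0.00398. U91 (0.467 ± 0.0242) was its only nucleotide at or above 0.4, and C90 read -0.962 ± 0.0523. The main fold pairs 7 of these nucleotides with nt 183 to 191. On that side 5 of the 7 partners were at or above 0.4, with a mean of 0.804 ± 0.00942. The linker holds only cytidines and uridines and these partners only guanosines and adenosines. The part of base composition in the difference was not tested.

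The first middle hairpin, nt 97 to 148, combined the lowest median of the 5 hairpins with some of the highest single values of 7SK. Its 52 nucleotides had a median of 0.0406, and C131 (5.70 ± 0.0387), G111 (5.40 ± 0.0384), A126 (3.48 ± 0.0284), A146 (3.23 ± 0.0287) and A109 (2.45 ± 0.0259) all exceeded 2. Between them, the 11 nt from C114 to G124 were all below 0.4, with a mean of -0.00421 ± 0.00503.

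This hairpin did not sort by pairing in the main fold. Its 32 paired nucleotides averaged 0.714 ± 0.00384 and its 20 unpaired ones 0.343 ± 0.00386, with medians of 0.0350 and 0.0581. Without the 4 paired and 1 unpaired nucleotides at 2 or more the order of the means turned, to 0.180 ± 0.00366 and 0.232 ± 0.00383. The main fold pairs G111 with C135 and C131 with G115, and the partners C135 (-0.0509 ± 0.0145) and G115 (0.0142 ± 0.0125) were near 0, so that only 1 strand of each pair was reactive. Both partners were low at 8 of 16 pairs (50.0%), near the 57.4% of all measured pairs of the main fold. In the short-range fold G111, C131 and A146 are unpaired, and A126, paired in every fold tried, would pair with U180 (2.86 ± 0.0264), itself in a reactive linker. The hairpin's 22 nucleotides unpaired in that fold averaged 0.964 ± 0.00486 and its 30 paired ones 0.283 ± 0.00327. Their medians ran the other way, with 0.0139 unpaired and 0.0640 paired.

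The second middle hairpin, nt 151 to 179, had a reactive A- and G-rich loop, nt 161 to 167. The longest run of capitals in its sequence leaves out the loop's first base, G161 (0.135 ± 0.0182). It also takes in G168, which all 3 folds pair with C160.
Middle hairpin 2, nt 151 to 179: gacCuUccccgAAUAGAGgAggaccgGuC
From A162 to G168 each value was at or above 0.4, with a mean of 1.30 ± 0.00687. U164 was highest (2.55 ± 0.0233), and G166 (1.94 ± 0.0207), A165 (1.38 ± 0.0185) and A163 (1.27 ± 0.0173) followed. Its 11 unpaired nucleotides had a median of 0.858 and its 18 paired ones 0.204. U156, at the foot of the inner helix, had 1.78 ± 0.0333 and C179, in the closing base pair of the main fold, 1.46 ± 0.0313. All 3 folds give the helix of nt 156 to 158 with 171 to 173, and 5 of its 6 nucleotides were below 0.4.

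The linker from U180 to C196 was the highest in mean of the elements with at least 9 measured nucleotides. That mean was 0.990 ± 0.00514, and 11 of 17 nucleotides (64.7%) lay at or above 0.4. U180 (2.86 ± 0.0264), A193 (2.42 ± 0.0216), A188 (2.16 ± 0.0227), U192 (1.87 ± 0.0213) and A195 (1.38 ± 0.0168) were highest, and C182 to C186 formed its low stretch. Between the reactive A193 and A195, U194 had 0.0205 ± 0.00853.

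**Figure D4:**
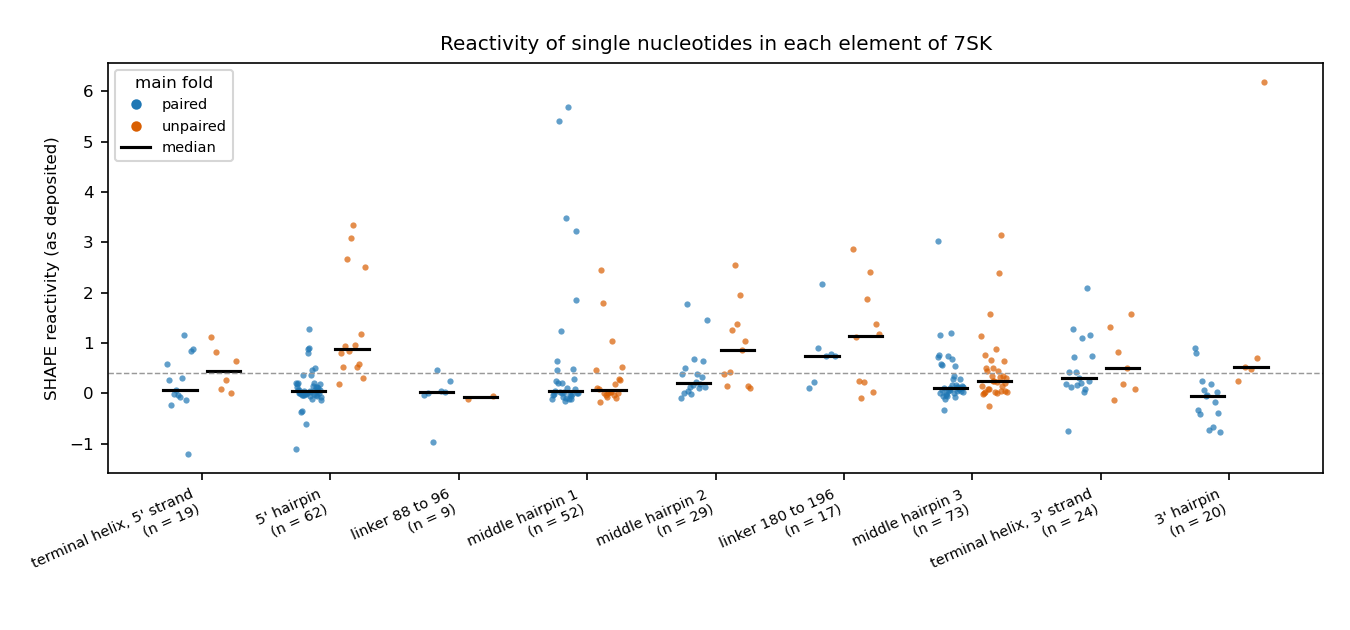
SHAPE reactivity in the deposited unit (vertical axis) of each nucleotide in the elements of 7SK with at least 9 measured nucleotides (horizontal axis), split by pairing in the main fold; black lines are medians and the dashed line is 0.4. In the 5′ hairpin the medians are 0.0365 paired and 0.887 unpaired, whereas in middle hairpin 1 the highest points, up to 5.70, are paired.

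The long central hairpin, the known binding place of hnRNP proteins, held both low helices and reactive adenosines. In the main fold it covers nt 197 to 269, and 22 of 73 nucleotides (30.1%) were at or above 0.4. That is near the 34.2% of all measured nucleotides of 7SK. Of its 40 paired nucleotides 10 (25.0%) were, against 25.4% of all paired nucleotides of 7SK. Against 57.4% of measured pairs over the RNA, both partners were low at 10 of 20 pairs (50.0%) of this hairpin. In the free and the short-range fold it pairs differently and reaches G183 to U283 and G197 to C284, and the helices that these folds share are described next. The main fold holds 0 of these 6 shared helices.

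The mean reactivity of the shared helices rose from the middle of the stem to the tip. Base composition differs between these helices as well, and its part was not tested. The 6 pairs of nt 211 to 216 with 259 to 264 had 0 of 12 nucleotides at or above 0.4, with a mean of 0.0731 ± 0.00766. The 3 pairs of nt 207 to 209 with 266 to 268 had 0 of 6 (mean 0.0377 ± 0.00972), and the 4 pairs of nt 223 to 226 with 252 to 255 had 1 of 8 (mean 0.0948 ± 0.00875). Higher up, nt 229 to 232 with 247 to 250 had a mean of 0.321 ± 0.00514, and nt 233 to 235 with 241 to 243 a mean of 0.378 ± 0.0117. The basal helix, nt 201 to 204 with 271 to 274, had 3 of 8 at or above 0.4, and in it C273 read -0.747 ± 0.0955 and U274 1.32 ± 0.0387.

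The highest values above the base of the central hairpin lay at nucleotides unpaired in the free and the short-range fold. A239 (2.39 ± 0.0256) and A240 (1.20 ± 0.0182) sit in the tip, A246 (3.15 ± 0.0316) in the bulge just below it and A228 (1.58 ± 0.0205) opposite A251. A218 to A221, part of an internal loop, ran from 0.433 to 0.763. A198 (3.03 ± 0.0264), at the base, is unpaired in the free fold and paired in the others. The 15 nt from G255 to C269, on the 3′ side, were all below 0.4, the longest low stretch outside the first hairpin.

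The strand after the central hairpin of the main fold, nt 272 to 288, had G287 (1.57 ± 0.0424), U274 (1.32 ± 0.0387) and A279 (1.28 ± 0.0298) as its highest values. From there to the last hairpin, A297 (1.02 ± 0.223), A298 (1.24 ± 0.162) and U299 (0.899 ± 0.440) of the linker were reactive, and A296 was not separated from 0.

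The LARP7-bound 3′ hairpin, nt 300 to 326, had the single highest value of 7SK in its loop. G314, the last base of the loop, had 6.20 ± 0.436, and the other loop nucleotides were far lower, with A310 at 0.2498 ± 0.0904, U311 at 0.524 ± 0.135, G312 at 0.478 ± 0.273 and U313 at 0.703 ± 0.224. LARP7 is known to grip this loop with a C-terminal RNA recognition motif. All 5 pairs of the upper stem (nt 305 to 309 with 315 to 319) had both partners below 0.4, with a mean of -0.255 ± 0.0868. Of the lower stem only the 5′ strand was read, and there G300 (0.892 ± 0.229) and A301 (0.797 ± 0.194) were reactive while G302 to C304 were below 0.4. Of the 27 nucleotides 7 had no value, and the errors of the others ran from 0.0904 to 0.545. Without the loop's G314 no nucleotide of this hairpin reached 1.

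In all, 18 nucleotides of the RNA reached 2 or more, from G314 down to A292. The next value below that bound was G166 with 1.94 ± 0.0207. Adenosines made up 11 of the 18 (61.1%) and 20.1% of the measured bases, and of the others 4 were uridines, 2 guanosines and 1 a cytidine. Of the 18, 11 were unpaired in the main fold, 10 in the free fold and 14 in the short-range fold. Of all 313 measured nucleotides, 116, 121 and 120 were unpaired in these folds. Among the 18, 7 were unpaired in all 3 folds and A126 was paired in all 3.

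Over the whole RNA, unpaired nucleotides were more often reactive than paired ones in each of the 3 folds. The share at or above 0.4 was 49.1% of 116 unpaired and 25.4% of 197 paired nucleotides in the main fold (exact Clopper-Pearson intervals, 95%, of 39.7 to 58.6% and 19.5 to 32.1%). It was 49.6% and 24.5% in the free fold and 54.2% and 21.8% in the short-range fold. Nucleotides of 1 RNA are not independent, and these intervals treat them as if they were. Where the main and the short-range fold disagree, 46 nucleotides paired only in the main fold averaged 0.691 ± 0.0131, and 42 paired only in the short-range fold averaged 0.376 ± 0.0105. At or above 0.4 were 20 of the 46 (43.5%) and 12 of the 42 (28.6%). Their medians were 0.206 and 0.192. At 2 or more were 4 of the first set (C131, G111, A146 and A292) and 1 of the second (U180). Without them the means were 0.366 ± 0.0138 and 0.315 ± 0.0108, and the shares at or above 0.4 were 38.1% and 26.8%.

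The separation by pairing depended on the base. In the main fold uridines had medians of 0.551 unpaired and 0.0529 paired, guanosines 0.491 and 0.0664, and adenosines 0.642 and 0.467. Cytidines had 0.0330 and 0.0904, with a lower mean when unpaired (0.155 ± 0.00557) than when paired (0.226 ± 0.00933). That order of the means rested on C131 alone, since the other 64 paired cytidines averaged 0.140 ± 0.00946. In the short-range fold, where C131 is unpaired, the cytidine means were 0.482 ± 0.0143 unpaired and 0.0550 ± 0.00674 paired, and the unpaired mean was 0.319 ± 0.0147 without C131.

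**Figure D5:**
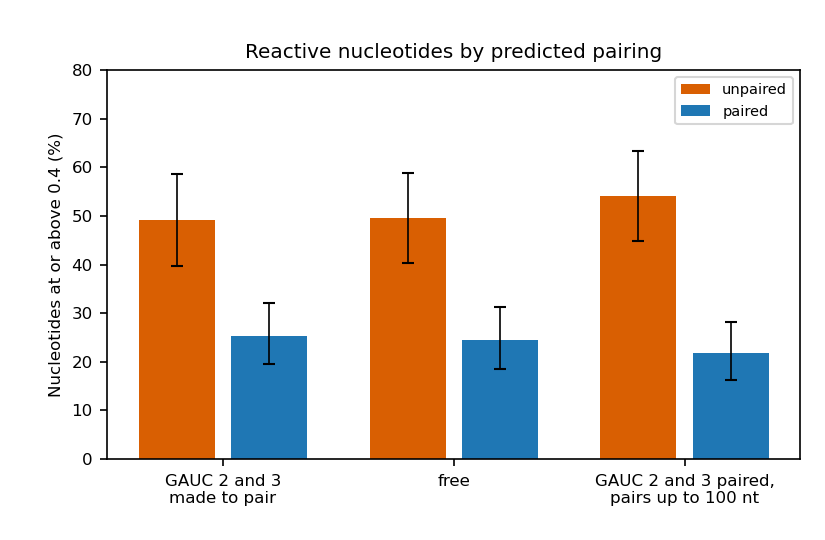
Share of 7SK nucleotides at a reactivity of 0.4 or more (vertical axis, percent) among those unpaired and paired in 3 folds of the sequence (horizontal axis), with exact 95% binomial intervals that treat nucleotides as independent. The share is 49.1, 49.6 and 54.2% unpaired and 25.4, 24.5 and 21.8% paired.

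Values below 0 were found at 74 nucleotides (23.6%), and at 37 of them they lay below 0 by more than 1.96 standard errors. G19 (-1.21 ± 0.352), A25 (-1.11 ± 0.147) and C90 (-0.962 ± 0.0523) were the lowest. Rpph1, the RNA of RNase P and the other non-coding RNA probed in these fibroblasts, had 26.0% below 0, 28.9% at or above 0.4 and 7.30% at or above 2, where 7SK had 34.2% and 5.75%. Its median deposited error was 0.0640 against 0.0225 in 7SK. Each of these RNAs has 1 profile, so no difference between them was tested.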

How the data were processed

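Mouse fibroblasts were probed in culture and read by SHAPE-MaP, in which adducts are counted as mutations after reverse transcription. The authors deposited, per nucleotide of 7SK, a reactivity score, a standard error of it (also a score) and the base, with -999 where no value exists. How mutations were counted, how reactivities were scaled and how the error was derived is not stated in those sources. The genome build, mm10, comes from the submitters' processing notes. Depth cannot be read from these scores, so the deposited error alone gives their precision.

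The sequence was matched to GRCm38, GENCODE M21 and RefSeq, and folded with ViennaRNA 2.7.2 at default settings in 3 ways: with GAUC repeats 2 and 3 forced to pair (main), free, and forced with pairs over at most 100 nt. Hairpins are unbranched and have at least 4 pairs. Errors of means combine the deposited errors as independent. Pairing probabilities with reactivities used Deigan pseudo-energies (slope 1.8, intercept -0.6), where values below 0 added none. No test was run, since 1 profile has no replicate. Named nucleotides are those of the GAUC repeats, their bulges and the outer hairpins' loops, up to 5 of the most reactive and the longest low run per element, and all at 2 or more; others that a helix or loop turns on were named after their values were seen. The thresholds 0.3 and 0.7, other folds, values below 0, medians, errors over 0.2, ends and helix-end pairs were varied. The members, lists and elements were chosen with earlier results of these data known. Hairpin finding was tested on a drawn structure and error propagation on simulated data. Python 3.11.15, numpy 2.4.6, pandas 2.3.3, scipy 1.17.1, pysam 0.24.0 and matplotlib 3.10.9 were used.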

Additional observations from a re-analysis of the deposited data

How the results depend on the processing

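The higher share and mean of unpaired over paired 7SK nucleotides kept its direction under the alternatives run for it, over adenosines alone too. Among cytidines of the main fold the means run the other way (0.155 unpaired and 0.226 paired), but not without C131 (0.140 paired). The cytidine medians and shares at or above 0.4 stay reversed without C131. Those medians were 0.0330 unpaired and 0.0796 paired, and the shares 13.3% and 15.6%. Without nucleotides at 2 or more, also chosen after seeing the data, the means over all bases were 0.457 unpaired and 0.190 paired. At a threshold of 0.7 the share of reactive nucleotides was 23.6% over the RNA, 34.5% unpaired and 17.3% paired, and the other alternatives for these shares stayed within the binomial interval of the value reported. Mean reactivity, 0.703 unpaired and 0.311 paired, was 0.655 and 0.331 in the free fold, 0.813 and 0.234 in the short-range fold, and 0.647 and 0.338 without nucleotides with an error over 0.2. It was 0.945 and 0.883 over adenosines alone, an alternative chosen after seeing the data, and the medians were 0.363 and 0.0986. With values below 0 set to 0 the paired mean was 0.370. The cause was not tested. Adding the reactivities moved the model probability of GAUC repeats 2 with 3 from 0.438 to 0.999 and of 1 with 2 from 0.4595 to 2.48e-05. Of 12 element means, 8 moved beyond their deposited error when medians were used and 6 when values below 0 were set to 0. Read depth is unknown, and errors at both ends limit what is said there. No paired analysis was possible because 7SK has 1 profile.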
